A study of Mus musculus with 33 samples.

Results

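Neil1- and Neil2-mutant mouse cells were compared with each other over mESCs, EBs and EBs + RA, with 9 libraries against 9. The libraries were chosen by their labels alone, as every library of a Neil1 or Neil2 mutant clone, and make 18 of the 33 in the series. RNA had been sequenced to follow how embryonic stem cells that lack a base excision repair enzyme enter differentiation. The comparison asks whether the loss of one glycosylase gives another expression profile than the loss of the other, beyond what single stages of 3 against 3 libraries could show.

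The parent of all lines was E14TG2a, an embryonic stem cell line of the mouse, and each library is 1 clone at 1 stage. Neil1 was represented by clones #7, #9 and #11, Neil2 by clones #1, #11 and #14, and the wild-type controls by clones #1, #4 and #7. The clone numbers of different genotypes are unrelated, so Neil1 #11 and Neil2 #11 are different lines. mESCs were undifferentiated cells grown with serum and LIF. EBs, embryoid bodies that form when the cells are kept in suspension without LIF, were collected on day 8, and EBs + RA were EBs of the same age that had received 5 µM retinoic acid, a vitamin A derivative that directs them towards neural fates. The 3 stages of a clone are repeated measures of that clone, so the comparison rests on 3 clones against 3. A clone differs from the others in more than its deletion, and what a clone brought by itself cannot be told apart from its mutation except by the agreement among the 3 clones.

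NEIL1 and NEIL2 are DNA glycosylases, enzymes that open base excision repair by cutting out oxidised bases and then nicking the DNA at the site. Both belong to the family of bacterial endonuclease VIII, and they share many substrates. They also act after TDG, the glycosylase that removes the oxidised forms of 5-methylcytosine, and in mitochondria.

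Each gene was targeted with a pair of guides, whose sites mark the deletion that was planned. The deletion that each clone carries was not examined here. The guides are shown from 5′ to 3′ in lower case with the adjoining PAM, the motif that Cas9 requires, in capitals, and were placed on the genome build NCBIM37.
Neil1 guide 1: gggaggaacaggtttgtaagTGG
Neil1 guide 2: gatgtcaggatccttccagcTGG
Neil2 guide 1: gctgtgtggttaaggctgagGGG
Neil2 guide 2: gctgtgaagaatgtctgaaaAGG

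The Neil1 guides lie on the minus strand at chr9:56995167-56995186 and chr9:56994583-56994602, the second cutting within an exon and the first within an intron. Between the cuts lie 584 bp, with 279 of the 1688 exon bases of Neil1. The Neil2 guides lie on the minus strand at chr14:63810934-63810953 and chr14:63810347-63810366, and both cut within introns. They enclose 587 bp, with 154 of the 1932 exon bases of Neil2. Since most of either transcript lies outside its planned deletion, counts summed over the gene do not check the genotype.

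In the Neil1 mutants, Neil1 was listed at 32.8 CPM (counts scaled to library size by TMM) in #7, 2.59 CPM in #9 and 7.63 CPM in #11 as mESCs, against 12.0 to 14.0 CPM in the Neil2 mutants and 7.89 to 10.2 CPM in the controls. The mESC library labelled Neil1 #7 thus held more Neil1 RNA than any control, which leaves its label unchecked by this gene, and it enters the differences in mESCs and over all stages. In EBs + RA the Neil1 mutants had 2.27 to 4.52 CPM of Neil1 and the Neil2 mutants 6.20 to 7.04 CPM, without overlap. Neil2 in EBs + RA stood at 5.05 to 6.09 CPM in its own mutants, 8.38 to 9.58 CPM in the Neil1 mutants and 3.52 to 4.65 CPM in the controls. Over all stages Neil1 was lower in the Neil1 mutants by a log2 difference of -0.85 (SE 0.36, FDR 0.317 by limma-voom), and Neil2 differed by 0.20 (SE 0.21, FDR 0.676). Without the mESC library labelled Neil1 #7 the difference of Neil1 was -1.21.

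The 18 libraries held from 21758303 to 32503071 counts on genes each. The mESC library of Neil1 #11 stood apart. It had no count on 347 genes of the distal X chromosome that every other mESC library detected with at least 10 counts, whereas the EBs of the same clone had counts on all 347 and its EBs + RA on 344. Sex-linked genes were left out of the comparison, and each count of calls below is also given without that library where it matters. In the same clone the genes of chromosome 9 stood lower than in the controls at every stage, with medians of -0.25 in mESCs, -0.28 in EBs and -0.32 in EBs + RA on the log2 scale. The chromosome 9 medians of the other mutant libraries lay between -0.05 and 0.07, and the other 339 autosome medians between -0.22 and 0.16, as the plot of autosome medians shows. Neil1 itself is on chromosome 9. How far this lower level enters the values of single genes of that chromosome, list members included, was not tested.

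**Figure D1:**
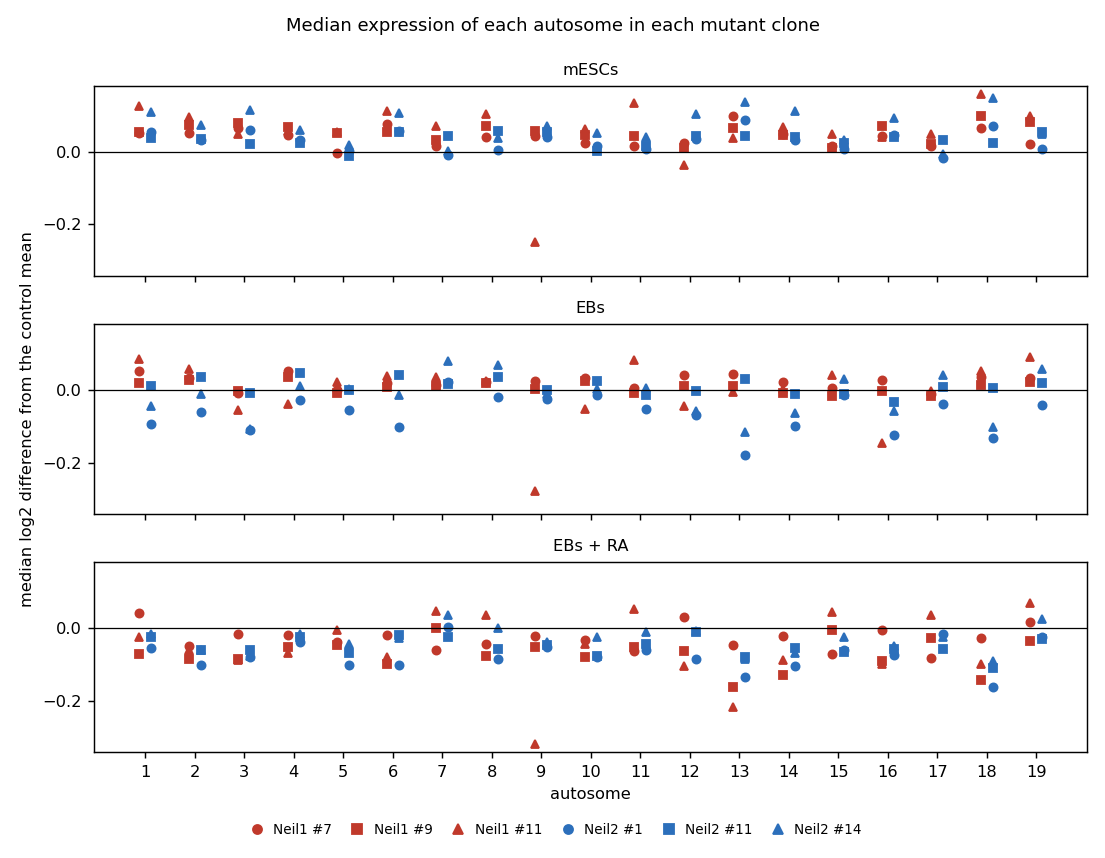
Median log2 difference from the mean of the control clones for the genes of each autosome (x axis, chromosome number), at 3 stages. Each point is 1 mutant clone, red for Neil1 and blue for Neil2. Only chromosome 9 in Neil1 #11 (red triangles) stood below -0.22, at -0.25, -0.28 and -0.32.

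The cells bore the marks of their stages. Pou5f1, the pluripotency factor OCT4, had 847 to 1179 CPM in the mutant mESCs, 413 to 856 CPM in their EBs and 31.5 to 134 CPM in their EBs + RA. Of the neural markers, Pax6, a regulator of neural progenitors, reached only 3.81 to 8.04 CPM in the mutant EBs + RA against 49.3 to 133 CPM in the controls. The Neil1 and Neil2 clones overlapped in both genes at EBs + RA.

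Over all stages no gene separated the 2 mutants. With calls made at FDR < 0.1 and a log2 difference beyond 0.5 in size, 0 of 16222 autosomal genes were called, which is 0% of the genes tested, by limma-voom with stage as a factor and the clone as a block. The lowest FDR was 0.246, while 2244 genes had an unadjusted p under 0.05, 1031 higher in Neil1 and 1213 higher in Neil2. edgeR's quasi-likelihood test without the clone block also called 0, with 2358 genes at an unadjusted p under 0.05. Summing the counts of each clone over its stages gave 0 calls by edgeR with 1819 such genes, and averaging log2 CPM per clone gave 0 by limma with 1657. DESeq2, which like edgeR's test without the clone block took the 18 libraries as independent, called 184 genes, 54 of them higher in Neil1. Leaving out Neil2 #1 with its 3 stages gave 67 calls, 61 of them higher in Neil1, and leaving out Neil1 #7 gave 3. Without any 1 of the other 4 clones, without the mESC library of Neil1 #11, or without the mESC library labelled Neil1 #7, the count was 0. The last of these fits had 2689 genes at an unadjusted p under 0.05 and a lowest FDR of 0.113.

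The precision sets how far this reaches. The median standard error of a log2 difference over all stages was 0.14, and the 95% interval of 14051 genes, 86.6% of those tested, lay within 1 log2 unit of 0. For 9109 genes, 56.2%, it lay within 0.5. The remaining genes could differ by more than that without being called.

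Whole transcriptomes were also compared clone by clone. The root mean square log2 difference between a Neil1 and a Neil2 library of the same stage had medians of 0.34 in mESCs, 0.34 in EBs and 0.38 in EBs + RA. Between clones of the same mutant, the medians were 0.37 within Neil1 and 0.27 within Neil2 in mESCs, 0.31 and 0.43 in EBs, and 0.51 and 0.42 in EBs + RA. The ranges overlapped at each stage. From a control clone of the stage, Neil1 clones had medians of 0.47 in mESCs, 0.56 in EBs and 0.89 in EBs + RA. Neil2 clones had 0.37, 0.61 and 0.82. Between control clones the medians were 0.45, 0.28 and 0.40.

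The genes that led the comparison over all stages are described next, none of them called. All of them had 3 Neil1 clone means on one side of the 3 Neil2 clone means, which 2994 of the genes tested, 18.5%, also had. That choice fixes their direction, so their values are a description.

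Prlr (ENSMUSG00000005268, chr15:10106993-10303504, plus strand) encodes the prolactin receptor and had the smallest p. In EBs + RA it stood at 12.6, 14.2 and 30.3 CPM in Neil1 #7, #9 and #11, and at 8.00, 4.61 and 5.38 CPM in Neil2 #1, #11 and #14. In EBs the values were 5.41, 5.36 and 6.39 CPM against 3.41, 3.13 and 3.77 CPM. Every Neil1 clone lay above every Neil2 clone at both stages, a lack of overlap, in either direction, that 10.1% of the genes tested had in EBs, and in mESCs all 6 were at or below 0.745 CPM. The log2 difference over all stages was 1.20 (SE 0.22, FDR 0.246).

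Cd38, an enzyme that consumes NAD, was called at no stage and had log2 differences of 0.70 in mESCs, 0.71 in EBs and 0.83 in EBs + RA and 0.75 over all (SE 0.15, FDR 0.246). Its mESC values were 13.7, 20.3 and 18.6 CPM in the Neil1 clones and 9.69, 9.88 and 12.3 CPM in the Neil2 clones, against 4.44 to 9.96 CPM in the controls. In EBs the 2 groups overlapped, since Neil1 #7 had 10.3 CPM and Neil2 #11 had 12.5 CPM.

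Rad51c (chr11:87190147-87218456, minus strand), which works in homologous recombination, was lower in Neil1 by a log2 difference of -0.49 (SE 0.11, FDR 0.246). It had 22.7, 17.8 and 21.5 CPM in the Neil1 mESCs and 32.5, 28.6 and 28.4 CPM in the Neil2 mESCs. In EBs + RA it had 10.2, 8.18 and 6.66 CPM in Neil1 and 13.7, 14.8 and 13.8 CPM in Neil2. The groups did not overlap at those stages, as was so for 10.8% of the genes tested in mESCs, and did in EBs. Pold2, a subunit of the replicative DNA polymerase delta, stood lower in Neil1 by -0.31 (SE 0.08, FDR 0.246).

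Ramp3, a partner protein of receptors for calcitonin-family peptides, had 4.94, 5.99 and 2.85 CPM in the Neil1 EBs + RA and 11.0, 9.63 and 9.24 CPM in the Neil2 EBs + RA. Its log2 difference over all stages was -0.72 (SE 0.16, FDR 0.246). The other genes higher in Neil1 were Sh3tc2, D6Wsu116e, Fgd3, Rdh10, Cndp2, Mfsd1, Lcp1, Trib1, A730049H05Rik and Atxn7, with log2 differences from 0.35 to 0.98. Others higher in Neil2 were Gm11543, Gm10807, Padi3, Slc7a4, Madcam1, Rprd1a, Cib2 and Dbndd1, from -0.39 to -1.07. Cib2 lies on chromosome 9, where Neil1 #11 stood lower as a whole, and the part of that in its value was not tested.

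**Figure D2:**
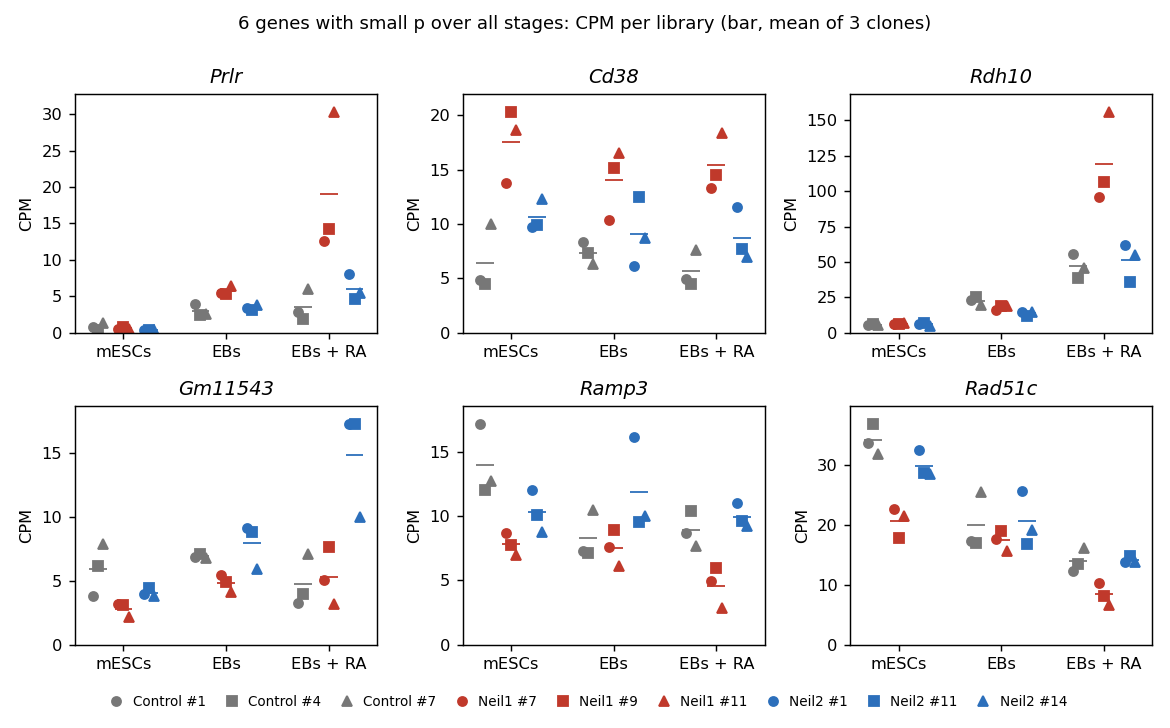
CPM (y axis) of 6 genes that led the comparison over all stages, in mESCs, EBs and EBs + RA. Each point is 1 clone, grey for control, red for Neil1 and blue for Neil2, and each bar is the mean of 3 clones. None of the 6 was called over all stages. In EBs + RA Prlr had 12.6 to 30.3 CPM in Neil1 and 4.61 to 8.00 CPM in Neil2, without overlap.

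The difference between the mutants was then allowed to change with the stage. The test of genotype by stage called 0 of 16222 genes at an FDR below 0.1 by limma-voom, 0% of the genes tested, with 1048 at an unadjusted p under 0.05, and edgeR's quasi-likelihood test also called 0. The genes with the smallest p in this test were Timp3, an inhibitor of matrix metalloproteinases, Atp1b1, a subunit of the sodium pump, Cd37, a tetraspanin of blood cells, Gm14074 and Sohlh2, a germline transcription factor. The log2 difference of Timp3 was 0.20 in mESCs, -0.28 in EBs and 1.81 in EBs + RA. That of Atp1b1 was 0.00, 0.14 and 1.35.

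Within single stages, 0 genes were called in mESCs and 0 in EBs, 0% of the genes tested at each, with 744 and 1074 at an unadjusted p under 0.05. In EBs + RA, 54 genes were called, 0.333% of the genes tested, with 2515 at an unadjusted p under 0.05. Of the 54, 32 were higher in Neil1 (0.197% of the genes tested) and 22 higher in Neil2 (0.136%). Since no gene passed the test of genotype by stage, these calls are not shown to be particular to EBs + RA.

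The 54 calls changed with the clones and libraries that entered the fit. They were 0 without Neil1 #11, 0 without Neil2 #11, 1 without Neil2 #14, 46 without Neil1 #9, 320 without Neil1 #7 and 489 without Neil2 #1. All 54 kept their sign and an unadjusted p under 0.05 in each of these fits. The genes were chosen for their differences in these same libraries, so that is a description and not a test. The lowest FDR was 0.16 without Neil1 #11 and 0.256 without Neil2 #11. Fits on the 6 EBs + RA libraries alone called 0 by edgeR's quasi-likelihood test, 0 by limma-voom and 133 by DESeq2. Leaving out the mESC libraries or the EB libraries also gave 0, as the plot of calls by setting shows. Without the mESC library of Neil1 #11, 42 of the 54 remained among 44 calls, without the mESC library labelled Neil1 #7, 29 remained among 30, and without chromosome 9 all 54 remained among 89.

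**Figure D3:**
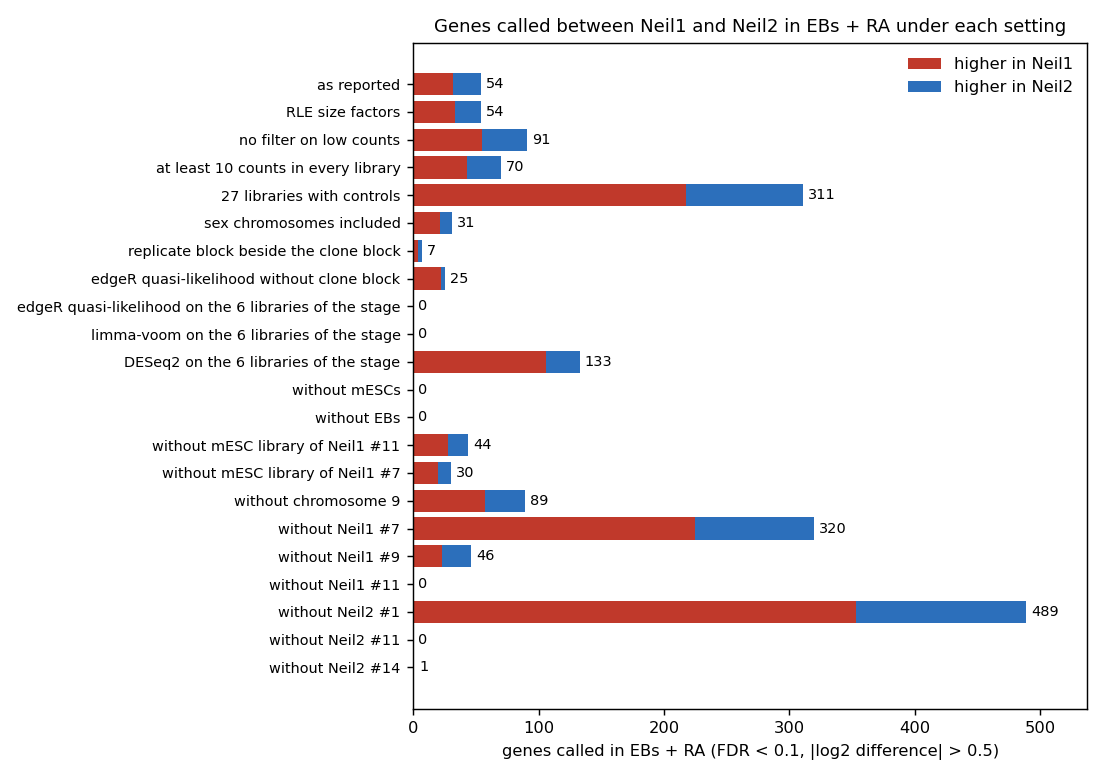
Number of genes called in EBs + RA between the mutants (x axis) in the fit reported and under each other setting (y axis), red for genes higher in Neil1 and blue for genes higher in Neil2. The fit reported called 54, and the counts ran from 0, as without Neil1 #11 or Neil2 #11, to 489 without Neil2 #1.

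Among the 32 genes higher in Neil1, the highest mutant library was Neil1 #11 for 30 and Neil1 #9 for 2. For the 22 genes higher in Neil2, the lowest mutant library was Neil1 #11 for 21 and Neil1 #9 for 1. The libraries of the 2 mutants did not overlap for any of the 54 genes that the next paragraphs name, as was so for 2879 of the genes tested, 17.7%. The median absolute log2 difference of the 54 genes was 1.17 with the controls in the fit, 0.88 without Neil1 #11 and 1.06 without Neil2 #11. It ran from 1.17 to 1.31 with any other clone left out.

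Of the genes higher in Neil1, Prlr differed by 1.57 (SE 0.28, FDR 0.0422). Lifr, the receptor subunit through which LIF signals, had 118, 135 and 332 CPM in Neil1 #7, #9 and #11 and 101, 46.4 and 65.3 CPM in Neil2 #1, #11 and #14. Its log2 difference was 1.37 (SE 0.30, FDR 0.0874), and the lowest Neil1 and the highest Neil2 library lay close together. Lrpap1, a chaperone of LDL receptor family proteins, had 408, 592 and 1162 CPM against 282, 263 and 287 CPM (log2 difference 1.23, SE 0.23, FDR 0.0490). Its Neil2 clones were tight and its Neil1 clones spread widely.

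Rdh10 (ENSMUSG00000025921, chr1:16095855-16123815, plus strand) makes retinaldehyde, the precursor from which cells form retinoic acid. It had 95.9, 106 and 156 CPM in the Neil1 clones, 62.2, 35.9 and 55.1 CPM in the Neil2 clones and 38.7 to 55.8 CPM in the controls. All Neil1 clones lay above all Neil2 and control clones. Its log2 difference was 1.23 (SE 0.19, FDR 0.0357), and it was the only member of the retinoic acid list that was called.

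Among genes of the cell surface and transport, Atp1b1 had 218, 255 and 472 CPM in Neil1 against 122, 97.3 and 132 CPM in Neil2 (log2 difference 1.35, SE 0.22, FDR 0.0422). Slc26a2, a sulphate transporter that cartilage matrix needs, had 78.9, 92.7 and 176 CPM against 60.1, 36.7 and 46.3 CPM. Chst15 and Chpf2, which build and sulphate chondroitin chains, were both higher in Neil1, by 1.28 (SE 0.28) and 1.26 (SE 0.28). Timp3 had 15.6, 13.8 and 28.4 CPM in Neil1 against 7.34, 3.69 and 5.09 CPM in Neil2, with the controls at 5.27 to 15.8 CPM.

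The largest log2 differences among the 54 were those of B4galnt2, a glycosyltransferase, at 2.43 (SE 0.52, FDR 0.0838), and Scube2, a secreted protein that helps to release Hedgehog ligands, at 2.14 (SE 0.46, FDR 0.0838). B4galnt2 had 5.13, 5.21 and 13.1 CPM in Neil1 and 1.37, 1.13 and 1.30 CPM in Neil2. Scube2 had 4.32, 6.55 and 14.9 CPM in Neil1 and 2.26, 1.49 and 1.30 CPM in Neil2. The controls had 1.02 to 4.58 CPM of B4galnt2 and 2.30 to 4.27 CPM of Scube2, so that all Neil2 clones lay below the controls for Scube2.

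**Figure D4:**
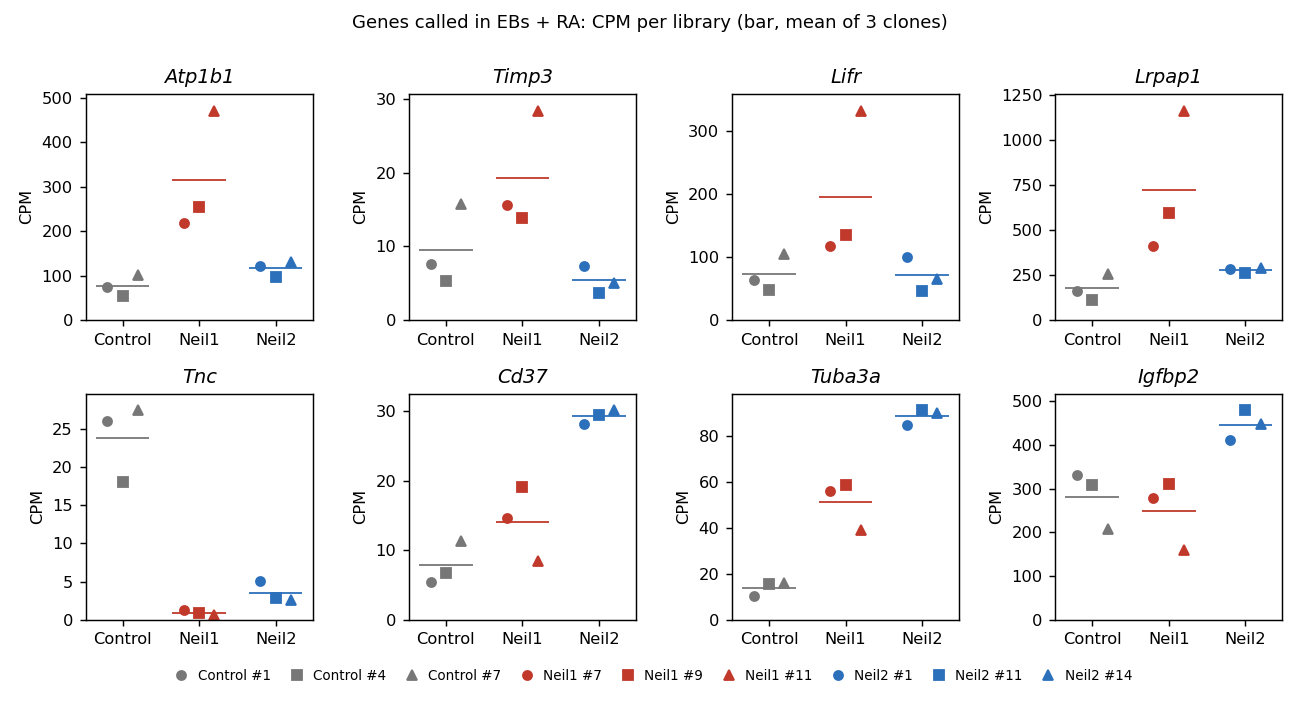
CPM (y axis) in EBs + RA of 4 genes called higher in Neil1 (top) and 4 called higher in Neil2 (bottom). Each point is 1 clone and each bar is the mean of 3 clones. Among the mutant clones, Neil1 #11 (red triangle) was the highest for the top genes, as with 472 CPM of Atp1b1. It was the lowest mutant clone for the bottom genes, as with 39.3 CPM of Tuba3a, of which the controls had 10.3 to 16.1 CPM.

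Of the genes higher in Neil2, Tnc (ENSMUSG00000028364, chr4:63620819-63681760, minus strand) encodes tenascin C, a matrix protein of embryonic mesenchyme and neural crest. It had 1.29, 0.89 and 0.67 CPM in the Neil1 clones, 5.07, 2.89 and 2.60 CPM in the Neil2 clones and 18.05 to 27.4 CPM in the controls. The log2 difference between the mutants was -1.82 (SE 0.33, FDR 0.0422). Tnc was the only member of the mesenchymal matrix list that was called.

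Cyp1b1, a cytochrome P450 that can oxidise retinoids and steroids, showed the same order, with 15.4, 10.4 and 6.53 CPM in Neil1, 24.9, 20.0 and 20.0 CPM in Neil2 and 58.3 to 80.0 CPM in the controls. Cd37 had 14.6, 19.1 and 8.46 CPM in Neil1 and 28.2, 29.5 and 30.1 CPM in Neil2, and both lay mostly above the 5.47 to 11.3 CPM of the controls. Igfbp2, a binding protein of insulin-like growth factors, had 279, 310 and 160 CPM in Neil1 and 412, 479 and 447 CPM in Neil2. Rps14, a protein of the small ribosomal subunit, had 868, 919 and 781 CPM against 1204, 1242 and 1304 CPM, a log2 difference of -0.56 (SE 0.12, FDR 0.0764).

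Of the 22 genes higher in Neil2, 5 are neighbours on chromosome 11. Tmem92-ps, Gm11546, AA623943, Gm11543 and Gm11544 lie on the minus strand within 68876 bp, at chr11:94638531-94707406 (NCBIM37), and all but the first are annotated as pseudogenes. Their log2 differences in EBs + RA were -1.15, -1.14, -1.20, -1.53 and -1.48. Gm11543 had 5.03, 7.62 and 3.14 CPM in the Neil1 clones and 17.2, 17.2 and 10.0 CPM in the Neil2 clones, with 3.21 to 7.08 CPM in the controls. It was also the gene with the second smallest p over all stages, at -1.03 (SE 0.20, FDR 0.246).

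The counts of these genes are uncertain where they are alike. Of the 50-base words in their exons, 2.03% of those of Tmem92-ps, 18.8% of those of Gm11546 and of AA623943, 14.8% of those of Gm11543 and 25.5% of those of Gm11544 also occur in another of the 5, so reads from there could not be placed and were set aside, and whether the 5 counts depend on each other was not tested. A likeness is also seen around the gene starts of the RefSeq table (GRCm38.p6), from 250 bases before to 50 after each start. Only 2 of the 5 were compared there, Gm11546 and Gm11543. Their longest shared run, of 61 bases, is in capitals. It lies before the start in both, so it does not show how reads from the exons were placed.
Gm11546 chr11:94798162-94798461, minus strand: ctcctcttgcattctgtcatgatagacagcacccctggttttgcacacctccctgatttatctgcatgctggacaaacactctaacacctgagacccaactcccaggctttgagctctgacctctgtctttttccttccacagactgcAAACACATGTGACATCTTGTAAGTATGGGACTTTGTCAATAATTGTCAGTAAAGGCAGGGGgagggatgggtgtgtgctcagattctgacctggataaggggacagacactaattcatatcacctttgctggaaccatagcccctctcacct
Gm11543 chr11:94829291-94829590, minus strand: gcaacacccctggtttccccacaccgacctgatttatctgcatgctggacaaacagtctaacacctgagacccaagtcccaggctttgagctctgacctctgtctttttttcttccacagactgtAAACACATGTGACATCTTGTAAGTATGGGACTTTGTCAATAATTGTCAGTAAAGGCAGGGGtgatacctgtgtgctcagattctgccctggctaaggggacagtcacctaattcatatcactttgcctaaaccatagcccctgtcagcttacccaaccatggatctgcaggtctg

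Each mutant was also set beside the control clones of the stage. In a fit of all 27 libraries, 41.6% of the genes tested were called between Neil1 and control in EBs + RA and 34.1% between Neil2 and control. In mESCs the shares were 5.22% and 1.1%, in EBs 16.2% and 15.4%, and over all stages 21.8% and 18.5%. The 2 comparisons share the control libraries, so only their values are given. For 21 of the 54 genes both mutants lay above the control mean with Neil1 farther from it, as for Atp1b1, at 2.00 (SE 0.22) in Neil1 and 0.64 (SE 0.22) in Neil2. For 12 genes both lay above with Neil2 farther, as for Tuba3a, at 1.89 and 2.69. For 5 genes both lay below with Neil1 farther, as for Tnc, at -4.63 and -2.81, and for 1, Phldb2, both lay below with Neil2 farther. The control mean lay between the mutants for the remaining 15.

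The wider gene groups were read from lists of members. Since no gene was called over all stages, no list had a called member there, and in EBs + RA the 25 lists had 2, Rdh10 and Tnc. The counts below therefore use an unadjusted p under 0.05, which 15.5% of all genes tested reached in EBs + RA and 13.8% over all stages. Each list is also given by its median log2 difference, beside -0.03 for all genes in EBs + RA and 0.00 over all stages.

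No base excision repair gene was called. Of the 11 DNA glycosylases 3 had an unadjusted p under 0.05 over all stages, and the median was -0.13. They were Neil1, itself the gene targeted in the Neil1 mutants, Mbd4 at -0.26 (SE 0.08, FDR 0.256) and Smug1 at -0.21 (SE 0.09, FDR 0.317). Ogg1, the main glycosylase for 8-oxoguanine, stood at 0.01 (SE 0.10). Of the 15 genes that act after the glycosylase, 2 had such a p, Apex1, the abasic site endonuclease, at 0.48 (SE 0.22, FDR 0.351) and Lig3, a DNA ligase, at 0.22 (SE 0.10, FDR 0.344).

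No gene of the p53 pathway was called. Of 36 genes of the pathway 2 had an unadjusted p under 0.05 over all stages and 4 in EBs + RA, with medians of 0.02 and 0.04. Mdm2, the ubiquitin ligase that restrains p53, had 379, 336 and 344 CPM in the Neil1 EBs + RA and 280, 310 and 260 CPM in the Neil2 EBs + RA, against 154 to 187 CPM in the controls. Its log2 difference between the mutants was 0.31 (SE 0.13, FDR 0.262). Ccng1, a p53 target, stood at 0.36 (SE 0.15, FDR 0.254) and Sesn2, another, at 0.10 (SE 0.14, FDR 0.766). Of the BCL2 family, which sets the threshold of apoptosis, 1 of 15 members had such a p over all stages.

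Parietal endoderm and basement membrane genes stood higher in Neil1 in EBs + RA. All 18 had a positive log2 difference, 16 had an unadjusted p under 0.05, and the median was 1.04, but none was called, and the lowest FDR was 0.107. Lama1, a laminin chain of the first embryonic basement membranes, had 601, 944 and 3640 CPM in Neil1 #7, #9 and #11 and 590, 162 and 296 CPM in Neil2 #1, #11 and #14. Col4a1, a chain of type IV collagen, had 1521, 2179 and 7172 CPM against 1487, 431 and 702 CPM. In both genes Neil1 #7 lay just above Neil2 #1, and the controls spanned 203 to 580 CPM and 418 to 1586 CPM. Without Neil1 #11 the median of the list was 0.60.

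The library of Neil1 #11 had the highest sums of several marker sets, in part through single genes. The summed level of 4 parietal endoderm markers (Lama1, Col4a1, Sparc and Thbd) was 17030 CPM in Neil1 #11, 3710 and 5254 CPM in the other Neil1 clones, 1225 to 4100 CPM in Neil2 and 1397 to 4322 CPM in the controls. The 3 endothelial markers summed to 140 CPM in Neil1 #11 against 18.3 to 48.3 CPM in the other mutant clones, most of it Cdh5 with 111 CPM. Its Tek, at 4.90 CPM, was the lowest of the 6 mutant clones, and its Pecam1, at 24.5 CPM, lay below the 28.7 CPM of Neil2 #11. The 3 trophoblast markers summed to 79.4 CPM against 6.21 to 17.99 CPM, led by Prl3d1 with 47.5 CPM and Tpbpa with 29.9 CPM. The third marker, Gcm1, went the other way, at 2.09 CPM the lowest of the 3 Neil1 clones, with Neil2 at 1.56 to 6.67 CPM. The 4 macrophage markers summed to 44.8 CPM against 6.11 to 13.03 CPM, but nearly all of it was Csf1r, with 44.5 CPM, while Tyrobp, C1qa and C1qb were at or below 0.2 CPM in every library. In bulk RNA, more cells of a type and more RNA per cell cannot be told apart. How far these cell types enter the 54 calls was not tested.

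Visceral and definitive endoderm genes showed a like order. Of 28 members 25 had a positive difference in EBs + RA, 11 an unadjusted p under 0.05, all higher in Neil1, and the median was 0.80. Over all stages 10 had such a p, all higher in Neil1, with a median of 0.49 that was 0.12 without Neil2 #11. Gata6, a regulator of primitive endoderm, had 78.6, 107 and 214 CPM in Neil1 and 100, 37.7 and 52.2 CPM in Neil2 (log2 difference 1.06, SE 0.38, FDR 0.214), and Neil2 #1 lay among the Neil1 clones. Ttr, transthyretin, had 51.3, 91.1 and 94.3 CPM against 49.2, 14.9 and 39.1 CPM. In EBs + RA the median was 0.74 without Neil1 #11, 0.43 without Neil2 #11 and 1.28 without Neil2 #1.

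Hox genes stood lower in Neil1. Of 34 members 32 had a negative difference in EBs + RA and 15 an unadjusted p under 0.05, all lower in Neil1, with a median of -0.47. Over all stages 10 had such a p, all lower in Neil1, with a median of -0.32. Hoxb1, an early target of retinoic acid in the hindbrain, had 58.9, 57.5 and 27.9 CPM in Neil1 and 132, 72.6 and 73.7 CPM in Neil2 (log2 difference -0.96, SE 0.28, FDR 0.157). Hoxb5 had 15.4, 15.0 and 9.84 CPM in Neil1, 24.2, 18.6 and 22.3 CPM in Neil2 and 54.0 to 120 CPM in the controls. The 14 Hox genes whose groups did not overlap were all higher in Neil2, beside the 17.7% of all genes tested that did not overlap in either direction, and without Neil1 #11 the median was -0.35.

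Of the 28 genes of retinoic acid metabolism and response, 8 had a positive difference, and 7 had an unadjusted p under 0.05 in EBs + RA with the higher level in Neil2 and 3 with the higher level in Neil1. Crabp2, which carries retinoic acid to its receptors, had 85.5, 72.4 and 29.7 CPM in Neil1 and 201, 92.8 and 105 CPM in Neil2 (log2 difference -1.13, SE 0.30, FDR 0.157). Stra8, a retinoic acid target that opens meiosis, had 853, 819 and 481 CPM in Neil1, 1526, 1148 and 1317 CPM in Neil2 and 227 to 513 CPM in the controls (log2 difference -0.93, SE 0.29, FDR 0.168). The median of the list was -0.14, and it was -0.02 without Neil2 #1 and -0.34 without Neil2 #11.

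**Figure D5:**
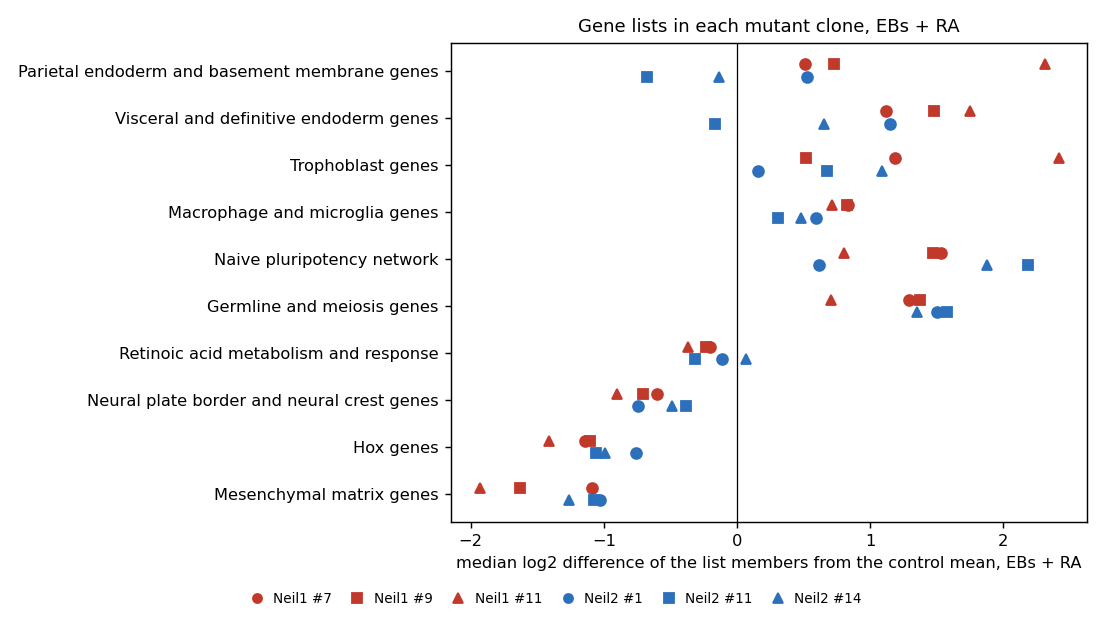
Median, over the members of 10 gene lists (y axis), of the log2 difference from the control mean in EBs + RA (x axis). Each point is 1 clone, red for Neil1 and blue for Neil2. Neil1 #11 (red triangle) lay farthest to the right for parietal endoderm genes, at 2.31, and farthest to the left for mesenchymal matrix genes, at -1.93.

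Mesenchymal matrix genes stood lower in Neil1, with a median of -0.60 in EBs + RA. Of 24 members 10 had an unadjusted p under 0.05 with the lower level in Neil1, and 1, Ctgf, with the higher. Col1a1, a chain of type I collagen, had 1.84, 1.41 and 1.01 CPM in Neil1, 6.99, 2.09 and 2.82 CPM in Neil2 and 41.4 to 84.2 CPM in the controls (log2 difference -1.27, SE 0.46, FDR 0.207). Without Neil1 #11 the median was -0.35.

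No neural plate border or neural crest gene was called. Of 43 members 7 had an unadjusted p under 0.05 in EBs + RA, 5 lower and 2 higher in Neil1, and the median was -0.17. Snai2, which drives crest cells out of the epithelium, had 2.55, 2.34 and 1.13 CPM in Neil1 and 5.70, 3.32 and 3.14 CPM in Neil2, against 11.7 to 13.9 CPM in the controls (log2 difference -1.01, SE 0.33, FDR 0.179). Zic1, a gene of the neural plate border, had 2.94, 2.01 and 1.05 CPM in Neil1 and 3.12, 3.65 and 3.79 CPM in Neil2, against 11.8 to 37.9 CPM. Cdh6 lay on the other side, at 1.90, 1.75 and 7.08 CPM against 1.52, 0.73 and 0.69 CPM. Tcfap2b and Neurog1, with 8.21 to 27.5 CPM in the control EBs + RA, were at or below 0.199 CPM in all 6 mutant clones, so no difference between the mutants was detectable.

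Of the pluripotency genes, Pou5f1 and Nanog overlapped between the mutants. Nanog had 63.9, 61.2 and 26.6 CPM in the Neil1 EBs + RA and 23.7, 139 and 102 CPM in the Neil2 EBs + RA (log2 difference -0.57, SE 0.49, FDR 0.604). Klf4 had 77.8, 77.4 and 139 CPM in Neil1 and 53.3, 51.2 and 49.7 CPM in Neil2, without overlap (log2 difference 0.87, SE 0.22, FDR 0.127). The differences of Eomes, Pax6, Nes, Pax2, Pax3, Hoxa2, Bcl2 and Bak1 over all stages lay between -0.43 and 0.22, with FDR from 0.525 to 0.919.

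The remaining lists had medians between -0.24 and 0.46 over all stages and between -0.48 and 0.65 in EBs + RA. The 40 respiratory chain subunits had 0 members at an unadjusted p under 0.05 over all stages and 8 in EBs + RA, all lower in Neil1. The 23 oxidative stress genes had 10 in EBs + RA, 7 higher and 3 lower in Neil1. Trophoblast genes had 3 of 19, all higher in Neil1, with a median of 0.65 that was 0.12 without Neil1 #11. Macrophage genes had 4 of 11, germline genes 4 of 30 and interferon-stimulated genes 3 of 28.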

How the data were processed

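RNA of 27 libraries was used, 18 of Neil1 and Neil2 mutants and 9 controls, each 1 independent clone at 1 stage, grouped by the sample labels. The 6 Apex1 libraries were not used. The authors aligned the reads to NCBIM37 with TopHat2 version 2.0.9 and summarised them with HTSeq version 0.5.4, and the deposited values are raw counts per gene, not normalized. Reads that aligned to several places, 13.3% to 19.0% per library, had been set aside, which lowers the counts of near-identical genes.

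Autosomal genes that passed edgeR's filterByExpr were scaled by TMM and fitted with limma-voom (limma version 3.58.1, edgeR version 4.0.16, R version 4.3.3), with stage and genotype as factors and the clone as a random block (estimated correlation 0.0335). FDRs are Benjamini-Hochberg adjusted over all 16222 genes tested, and a call needs an FDR below 0.1 and an absolute log2 difference above 0.5. Differences are Neil1 minus Neil2. Single stages and genotype by stage came from a fit of 6 means, and differences from control from a fit of 9 means. Distances and autosome medians were computed from CPM with pseudocounts of 1 and 0.5. Alternatives were edgeR's quasi-likelihood test and DESeq2 (version 1.42.0), neither of which took the clone block, other scalings and filters, the controls included, sex chromosomes included, and each clone or stage left out. Those fitted without chromosome 9, without the mESC library of Neil1 #11 or of Neil1 #7, or by limma-voom or DESeq2 on the 6 libraries of a stage were chosen after seeing the data, as were most alternatives for single stages. Scripts were tested on simulated data.

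Named genes were both targeted genes, the 12 leading genes in each direction whose clone means do not overlap (mean log2 CPM 1 or higher), called list members, the 5 leading genes of the genotype by stage test, and genes the study measured by qPCR. Sox1 was not matched. One of the leading genes is not reported here. Genes called in EBs + RA, and members named from lists, were chosen after their values were seen. The comparison and the lists were chosen with earlier results of these data known. Replicates are separate clones, and p-values rest on the spread between clones within stages, pooled over the stages in the fit. With a clone correlation of 0.0335, the fit over all stages took the 3 stages of a clone as nearly independent. Only the fits with counts summed or log2 CPM averaged per clone had 1 value per clone. Replicate numbers were not used to pair the libraries in the fit reported. No pair of libraries of a group agreed within sampling noise (chi-squared per degree of freedom 9.63 to 137). Figures were drawn with matplotlib version 3.10.9.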

Additional observations from a re-analysis of the deposited data

Results flagged for a closer look

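Sohlh2, a germline transcription factor, differed in opposite directions at 2 stages. In mESCs it had 116, 129 and 150 CPM in the Neil1 clones and 110 CPM in each Neil2 clone, a log2 difference of 0.25, and in EBs + RA it had 90.9, 82.9 and 73.8 CPM against 114, 113 and 114 CPM, a log2 difference of -0.47. At each of these stages all Neil1 clones lay on one side of all Neil2 clones, as was so for 10.8% of the genes tested in mESCs and 17.7% in EBs + RA. The gene was named as a leader of the genotype by stage test, which favours opposite signs. Neither difference was called, and the test of genotype by stage gave an FDR of 0.735 by limma-voom, so the change of direction did not pass.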

How the results depend on the processing

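Over all stages the count of calls, 0 as reported, was 1 with no filter on low counts and 184 by DESeq2, and 0 to 67 with a clone left out. In mESCs and EBs, DESeq2 on the 6 libraries of the stage called 5 and 1. In EBs + RA the 54 calls became 91 with no filter, 311 with the controls in the fit, 31 with sex chromosomes, 25 by edgeR without the clone block, 133 by DESeq2 on 6 libraries, 89 without chromosome 9, 30 without the mESC library labelled Neil1 #7, 14 at an FDR below 0.05, and 0 by edgeR or limma-voom on 6 libraries, without mESCs or without EBs. With a clone left out the count ran from 0 to 489. The cause was not tested.

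With the replicate block, which pairs libraries by their number in the labels, 0 genes were called over all stages and 7 in EBs + RA. The correlation of same-numbered libraries was -0.295 to 0.134, and that of differently numbered ones -0.202 to 0.227. Same-numbered libraries were thus no more alike than others, and whether they shared a batch was not tested. Members of lists called over all stages were 11 by DESeq2 and 0 to 9 with a clone left out. Those called in EBs + RA, 2 as reported, were 21 with the controls, 1 with the replicate block, 12 by DESeq2 on 6 libraries, 4 without chromosome 9, 0 by edgeR or limma-voom on 6 libraries, without mESCs or without EBs, and 0 to 50 with a clone left out. At a mean of at least 1 CPM the chromosome 9 median of Neil1 #11 was -0.27 in mESCs and -0.30 in EBs + RA, with the other mutant libraries between -0.016 and 0.054.

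Uncalled differences over all stages that changed sign were Neil2 (-0.039), Pou5f1 (0.13), Pax6 (0.12), Pax2 (-0.36) and Bak1 (0.069) without EBs + RA, Nes (-0.13) without mESCs, Pax2 (-0.22) and Hoxa2 (0.028) with the controls, Pou5f1 (0.031) with counts summed per clone and Pax2 (-0.096) with log2 CPM averaged per clone. With a clone left out, Pou5f1 ran from -0.34 to 0.11, Nes from -0.0095 to 0.15, Pax2 from -0.097 to 0.40, Pax3 from -0.86 to 0.11, Hoxa2 from -0.21 to 0.054 and Bak1 from -0.15 to 0.077. Depth limits genes with few counts, and 3 clones a mutant limit all others.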
